A study of Caenorhabditis elegans with 2 samples.

Results

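Genes for the protein synthesis machinery of C. elegans were examined for occupancy by CEH-34, a Six-family homeodomain protein known for its role in neurons of the pharynx. The set held every protein-coding gene whose symbol starts with eif-, eef-, ife- or iff-, and the aminoacyl-tRNA synthetase genes named by a single letter followed by ars-1 or ars-2. It came to 69 of 19973 nuclear protein-coding genes, namely 30 initiation factor genes (eif- and ife-), 6 elongation factor genes (eef-), 2 genes of eIF5A (iff-) and 31 synthetase genes. The data were ChIP-seq peak lists from 2 biological replicates of a single group and from both replicates together. The worms were hermaphrodites of strain OP524, which carries the allele unc-119(tm4063) on chromosome III and the integrated transgene wgIs524, a source of CEH-34 fused at its C-terminus to GFP and FLAG. Whole late embryos were collected 3.5 hours after bleaching of eggs, chromatin was sonicated, and tagged protein was recovered with an antibody against GFP. The labels do not name the promoter of the transgene, and no untagged worms were analysed here. Because whole embryos were used, occupancy in few cells and weak occupancy in many cells cannot be told apart.

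Protein synthesis begins when initiation factors bring the small ribosomal subunit, the initiator tRNA and the capped mRNA together. Elongation factors then deliver aminoacyl-tRNAs to the ribosome and move it along the mRNA, and synthetases charge each tRNA with its amino acid. Most of these functions are needed in every growing cell, while some of the genes are forms with narrower roles, such as those known from the germ line.

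A gene was called bound when the summit of a peak in the authors' thresholded list lay no more than 1000 bp from the 5′ end of one of its coding transcripts. The thresholded list held 2490 nuclear peaks, the pooled list 29396, replicate 1 21705 and replicate 2 23491. The authors' signal value is taken as peak height. Its scale may differ between lists, so the rank within a list is given beside some of the values. The lowest signal in the thresholded list was 76.5. Of the 69 genes, 18 (26.1%) were bound, against 8.65% of all protein-coding genes. The 4 classes differed in this share, with 9 of 30 initiation factor genes, 4 of 6 elongation factor genes (66.7%), both eIF5A genes and 3 of 31 synthetase genes (9.68%) bound. The share of synthetase genes was close to that of all genes, and the shares of initiation and elongation factor genes stood above it. The single group of 2 replicates gives no test of these shares, which are reported as counts beside the background.

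**Figure D1:**
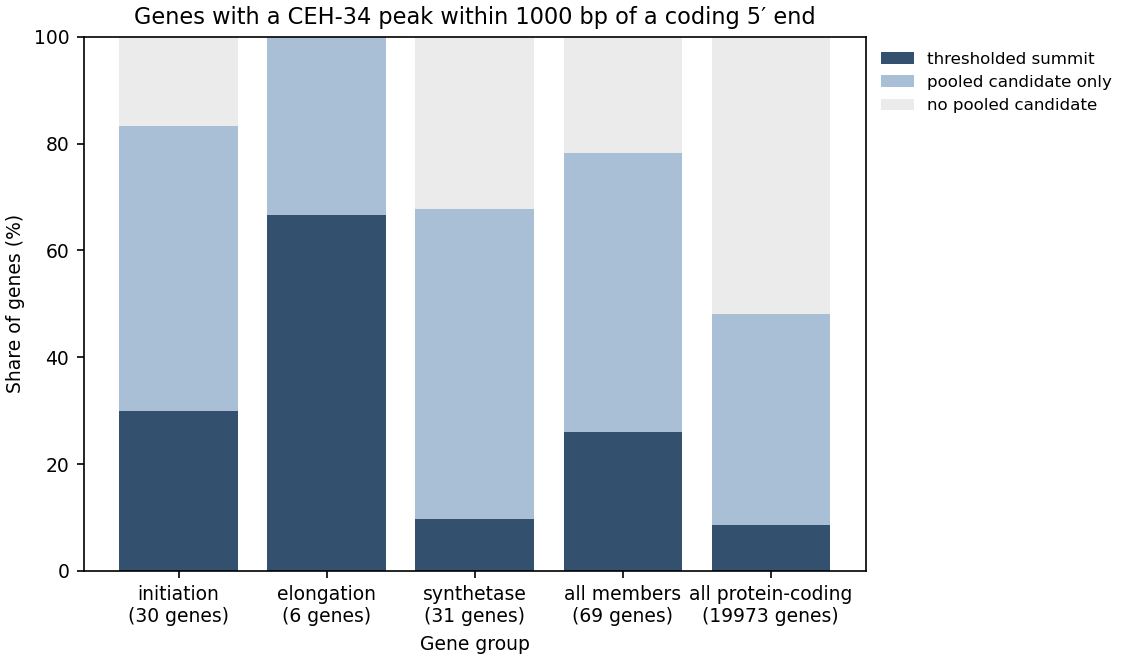
Share of genes with a thresholded summit (dark), with a pooled candidate but no thresholded summit (light) and with no pooled candidate (grey) within 1000 bp of a coding 5′ end, for initiation factor, elongation factor and synthetase genes, all 69 members (which include the 2 eIF5A genes, not drawn as a bar) and all 19973 protein-coding genes. The dark share covers 9 of 30, 4 of 6 and 3 of 31 genes in the 3 classes, 26.1% over all members and 8.65% over all genes.

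Candidate peaks, which include those below the threshold, were widespread in the set. A pooled candidate lay within 1000 bp of a 5′ end of 54 of the 69 genes (78.3%), against 48.2% of all genes. This held for 25 of 30 initiation factor genes (83.3%), all 6 elongation factor genes, both eIF5A genes and 21 of 31 synthetase genes (67.7%). Among genes that had a pooled candidate, the thresholded list called 9 of 25 initiation factor genes, 4 of 6 elongation factor genes (66.7%) and 3 of 21 synthetase genes (14.3%), against 18.0% of all genes. The strongest pooled candidate of a gene had a median signal of 57.1 over the 25 initiation factor genes with a candidate, 131 over the 6 elongation factor genes and 34.6 over the 21 synthetase genes, against 34.7 over all 9619 genes with one. Replicate 1 had a candidate at 55 of the 69 genes and replicate 2 at 54, against 41.6% and 43.4% of all genes. Candidates were present in each replicate at 49 of the 69 genes (24 initiation, 6 elongation, 2 eIF5A and 17 synthetase genes), where 29.9% of all genes had candidates in both. No candidate in any of the 3 candidate lists was found at 9 genes, of which 8 were synthetase genes, while 41.0% of all genes had none.

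**Figure D2:**
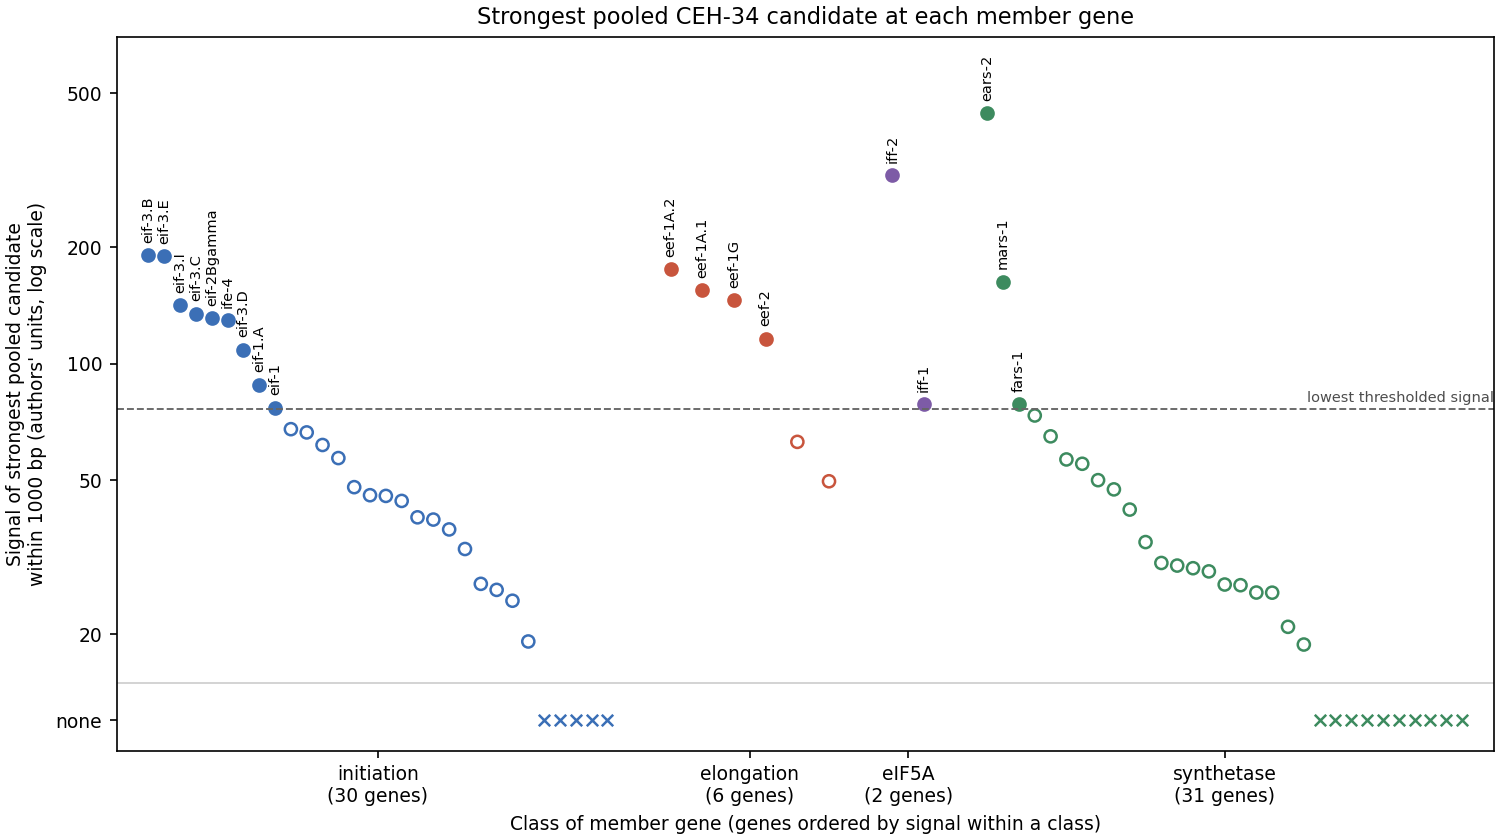
Signal of the strongest pooled candidate within 1000 bp of each member gene (authors' units, log axis), with genes ordered by signal within their class. Filled circles are bound genes, open circles have only candidates below the threshold, and crosses in the lowest band are genes with no pooled candidate. The dashed line marks the lowest thresholded signal, 76.5, and ears-2 at 444 and iff-2 at 307 stand highest.

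The 2 strongest peaks of the set lay at genes of different classes. The highest signal, 444, ranked 27 among the 2490 nuclear peaks. Its peak lay at ears-2, a glutamyl-tRNA synthetase gene, with its summit also 62 bp from the divergent gene uncp-18. The next, 307 and rank 82, belonged to iff-2, which encodes eIF5A, a factor named for initiation and known for its role in elongation. In both replicates these peaks were near the top of the list, with ears-2 at rank 19 in replicate 1 and rank 35 in replicate 2, and iff-2 at ranks 77 and 97. Among bound genes the median signal was 138 over the 18 members and 119 over all 1727 bound genes. The sequences below were read at the strongest summits of each class, from 50 bp before to 50 bp after the summit, with the stretch at ears-2 cut short of the transcript. They come from RefSeq (WBcel235, equal to ce11) and are written on the strand of the named gene, with every copy of the GA repeat GAGAGA in capitals.
ears-2, chrIV:390469-390548, minus strand: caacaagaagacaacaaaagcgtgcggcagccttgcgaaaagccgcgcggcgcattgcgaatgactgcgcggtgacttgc
mars-1, chrIV:11635772-11635872, minus strand: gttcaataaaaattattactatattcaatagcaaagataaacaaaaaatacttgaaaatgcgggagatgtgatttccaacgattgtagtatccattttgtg
iff-2, chrII:8561401-8561501, minus strand: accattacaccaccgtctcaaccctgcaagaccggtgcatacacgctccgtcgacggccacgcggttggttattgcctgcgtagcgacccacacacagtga
eef-1A.2, chrX:7823243-7823343, plus strand: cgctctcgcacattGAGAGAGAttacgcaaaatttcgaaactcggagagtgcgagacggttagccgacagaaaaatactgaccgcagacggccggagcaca
eef-1A.1, chrIII:6972033-6972133, minus strand: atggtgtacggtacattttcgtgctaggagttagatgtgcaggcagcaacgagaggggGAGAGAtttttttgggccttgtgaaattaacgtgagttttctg
eif-3.B, chrII:14795101-14795201, plus strand: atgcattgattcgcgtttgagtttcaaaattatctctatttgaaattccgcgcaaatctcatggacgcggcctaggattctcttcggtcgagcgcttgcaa

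The GA repeat stood in the windows of eef-1A.2 and eef-1A.1 and in no other window of the 18 bound members. It was thus found at 2 of 18 member summits (11.1%), against 28.8% of all 2490 nuclear summits, when searched on both strands within 50 bp. The sine oculis core TGATAC was found at 1 of the 18, the summit near iff-1, against 3.21% of all summits. Neither the MEF3-type site TCAGGTT (1.53% of all summits) nor the E-box CAGCTG (3.94%) was found at any of them. GC content within 50 bp of the summits had a median of 49.5% for the 18 members and 49.5% for all summits. Among the members it ranged from 27.7% at mars-1, whose window is rich in A and T, to 59.4% at iff-2. The ears-2 window, at 58.4%, and the iff-2 window were the richest in G and C.

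Among initiation factor genes, subunits of eIF3 made up 5 of the 9 that were bound. eIF3 is the large complex that holds the small subunit and mRNA together. Its genes made up 11 of the 30 initiation factor genes, and 5 of the 11 were bound (45.5%), against 8.65% of all genes. The gene eif-3.B (WBGene00001225, II 14795404 to 14798235) had a signal of 191, with 97.6 in replicate 1 (rank 334) and 93.9 in replicate 2 (rank 508). Its summit lay 253 bp upstream of the 5′ end, at II 14795151, and at the same base in both replicates. The gene eif-3.E had a signal of 190, with 89.8 in replicate 1 and 102 in replicate 2, from a summit 193 bp upstream. These were the strongest peaks at initiation factor genes, and the replicates ranked both of them among their 508 strongest peaks.

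The remaining bound eIF3 genes had lower peaks. Signals were 142 at eif-3.I, 135 at eif-3.C and 109 at eif-3.D. The eif-3.I gene had 2 thresholded summits, the stronger in an intron of the gene, 487 bp before the start of a shorter transcript, and the weaker (89.7) 223 bp upstream of the gene and 247 bp from the divergent gene abtm-1. The summit at eif-3.C lay 247 bp upstream, in a gap of 401 bp behind sys-1, a gene on the same strand, and replicate 1 ranked it higher (527) than replicate 2 (1456). The summit at eif-3.D was 248 bp from its own 5′ end and only 66 bp from that of R08D7.4, so this peak cannot be assigned to one of the pair.

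The other 6 eIF3 genes were not bound. Of these eif-3.G came closest, with a pooled signal of 67.8, and eif-3.H had 45.8 and eif-3.F 33.2. No pooled candidate was found at eif-3.J, eif-3.K or eif-3.L. At eif-3.K single candidates of 13.4 in replicate 1 and 13.2 in replicate 2 lay on opposite sides of the 5′ end. The gene eif-3.L had no candidate in any list. The eIF3 gene egl-45, whose symbol lies outside the rule and which was looked up after the data were seen, had a pooled candidate of 32.7 and was not bound. Other translation genes looked up later were cif-1 and glp-4, and neither was bound. For glp-4 the pooled candidate was 33.0, and cif-1 had none, with 28.8 in replicate 1 and 19.9 in replicate 2. The values of eif-3.H and eif-3.F were likewise picked out once seen.

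Both factors that guide the choice of the start codon had weak bound peaks. The gene eif-1.A, which encodes eIF1A, had a signal of 88.2, 361 bp upstream, with 41.6 in replicate 1 and 43.0 in replicate 2. The gene eif-1 had 77.1, just above the lowest thresholded signal, with 46.2 in replicate 1 (rank 1757) and 33.3 in replicate 2 (rank 3848). Its summit lay 390 bp upstream of eif-1, 28 bp from the 5′ end of the divergent gene vps-24 and 893 bp from pigb-1. The eif-1 peak is therefore both the lowest of the set and nearer to another gene.

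Genes of eIF2, which carries the initiator tRNA, and of its exchange factor eIF2B had 1 bound member among 8, a share not far from the 8.65% of all genes. It was eif-2Bgamma, 1 of the 5 eIF2B genes, with a signal of 131, 69.7 in replicate 1 and 61.7 in replicate 2. Its summit, at II 6968560, lay 912 bp upstream of the gene, in an intron of the neighbouring gene C15F1.5 and within 200 bp of mir-1831 and sup-39, both annotated as snRNA genes. It was the only bound member with a structural RNA gene that close. For eif-2beta the pooled signal was 57.1, and eif-2alpha, eif-2Balpha and eif-2Bbeta had 40.1, 39.6 and 37.3, with the lowest value, 24.4, at eif-2gamma. All but eif-2beta among these were named once their values were known. No pooled candidate was found at eif-2Bdelta and eif-2Bepsilon, which each had a candidate in replicate 2 and none in replicate 1, of 30.7 and 21.8.

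Of the 5 ife genes, which encode forms of the cap-binding protein eIF4E, only ife-4 was bound. Its signal was 129, with 54.4 in replicate 1 and 77.5 in replicate 2, from a summit 296 bp upstream with no other coding 5′ end within 1000 bp. The next, ife-2, reached 61.7, and ife-3, ife-1 and ife-5 reached 27.0, 26.1 and 19.2, values of pooled candidates far below the threshold. These last 3, named once their values were known, each had a candidate in 1 replicate and none in the other. The factors eif-6, which keeps ribosomal subunits apart, and eif-4A3, a helicase of the exon junction complex, had pooled candidates of 66.5 and 48.0. The genes eif-2A and eif-2D, named once their values were known, had 44.2 and 45.6, and none of these 4 was bound.

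Elongation factor genes had the largest share bound of the 3 classes with more than 2 genes, in a class of 6. The pair that encodes eEF1A, the carrier of aminoacyl-tRNA, was bound at both genes. At eef-1A.2 (WBGene00001169, X 7823654 to 7825769) the signal was 176, with 76.9 in replicate 1 and 97.7 in replicate 2. At eef-1A.1 (WBGene00001168, III 6970026 to 6971712), also known as eft-3 and for a promoter that is active in most tissues, the signal was 155, with 83.5 in replicate 1 and 77.6 in replicate 2. The summits lay at nearly the same distance from the genes, 361 bp and 371 bp upstream, and these are the windows with the GA repeat shown above. No other coding 5′ end was near the eef-1A.2 summit, while that of rfc-4 was 170 bp from the eef-1A.1 summit and nearer than that of eef-1A.1.

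The translocation factor gene eef-2 and the eEF1B subunit gene eef-1G had summits almost at their 5′ ends. The eef-1G signal was 146, with 77.2 in replicate 1 and 68.9 in replicate 2, from a summit 15 bp upstream and 165 bp from ctf-4. The eef-2 signal was 116, with 58.9 in replicate 1 and 57.7 in replicate 2, from a summit 18 bp upstream and 247 bp from clsp-1. Both unbound genes encode other subunits of eEF1B, the exchange factor of eEF1A. They had candidates in each replicate, with pooled signals of 62.9 at eef-1B.2 and 49.7 at eef-1B.1. All 4 bound elongation factor genes ranked among the 1413 strongest peaks of each replicate.

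The eIF5A genes were bound at unlike places. The iff-2 summit lay 84 bp upstream of the gene (WBGene00002065, II 8559375 to 8561367), with 150 in replicate 1 and 163 in replicate 2. The iff-1 gene, known for a role in germ cells, was bound by a peak of 78.7 that lay past its far end, 395 bp beyond the 3′ end, and met the rule through a short transcript that starts 690 bp away. This was the only bound member whose strongest summit lay downstream of the 5′ end. A candidate of 62.5 was found there in replicate 2, and replicate 1 had none within 100 bp of the summit. A replicate 1 candidate of 23.5 lay 799 bp from the start of that transcript. By overlap, in place of summit distance, the peak had a candidate in both replicates. At the main 5′ end of iff-1 a pooled candidate of 53.6 lay below the threshold, with 21.2 in replicate 1 and 30.8 in replicate 2.

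Synthetase genes had 1 of the strongest peaks and few others. The ears-2 summit, at IV 390498, lay 30 bp upstream of ears-2 (WBGene00001338) and 62 bp from uncp-18, in a gap of 92 bp between these divergent genes. Signals there were 227 in replicate 1 and 214 in replicate 2, and the peak cannot be assigned to one of the pair. At mars-1, a methionyl-tRNA synthetase gene, the signal was 163, with 73.2 in replicate 1 and 90.8 in replicate 2, from a summit 335 bp upstream and 826 bp from F58B3.6. At fars-1, a gene for a phenylalanyl-tRNA synthetase subunit, it was 78.5, with 38.3 in replicate 1 (rank 2444) and 36.4 in replicate 2 (rank 3269). That summit lay 875 bp upstream, in an exon of T08B2.15, and the 5′ end of rbm-5 was nearer at 167 bp. So 2 of the 31 genes had a bound peak whose nearest coding 5′ end was their own.

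Among unbound synthetase genes, gars-1 came closest to the lowest thresholded signal of 76.5. The highest unbound candidate of the whole set, 73.5, was at the glycyl-tRNA synthetase gene gars-1, with 37.8 in replicate 1 and 38.2 in replicate 2, and it lay 467 bp inside the gene. The next in this class were tars-1 (threonine, 64.96), yars-2 (tyrosine, 56.6), nars-1 (asparagine, 55.2) and pars-2 (proline, 50.05). The other 13 unbound synthetase genes with a pooled candidate had between 18.8 and 47.4. At pars-1 each replicate had a weak candidate, 17.2 in replicate 1 and 17.8 in replicate 2, and the pooled list had none. These pars-1 candidates lay at different sites, in replicate 1 upstream of the nearest 5′ end and in replicate 2 downstream of the nearest. At tars-1 the replicates differed, with 20.5 in replicate 1 (rank 8872) and 45.7 in replicate 2 (rank 2177). At the lysyl-tRNA synthetase gene kars-1 a candidate of 50.6 was found in replicate 1 (rank 1476), with none in replicate 2 within 1000 bp and none in the pooled list. No candidate in any list was found at dars-2, ears-1, fars-2, iars-1, rars-1, rars-2, vars-1 or yars-1, the last 4 of which, with pars-1, were named once their values were known.

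The number in a synthetase symbol did not separate bound from unbound genes. Of the 20 genes numbered 1, 2 were bound, and of the 11 numbered 2, 1 was bound. Both shares were close to the 8.65% of all genes, and the pairs that follow are single cases. For glutamate the strongest peak of the set lay between ears-2 and uncp-18, while ears-1 had no candidate in any list. For phenylalanine the order was the other way round, with fars-1 bound and fars-2 without a candidate. The fars-1 call rested on a peak of 78.5 that lay 875 bp upstream and nearer to rbm-5. The median pooled signal over genes with a candidate was 34.6 for number 1 and 34.5 for number 2.

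**Figure D3:**
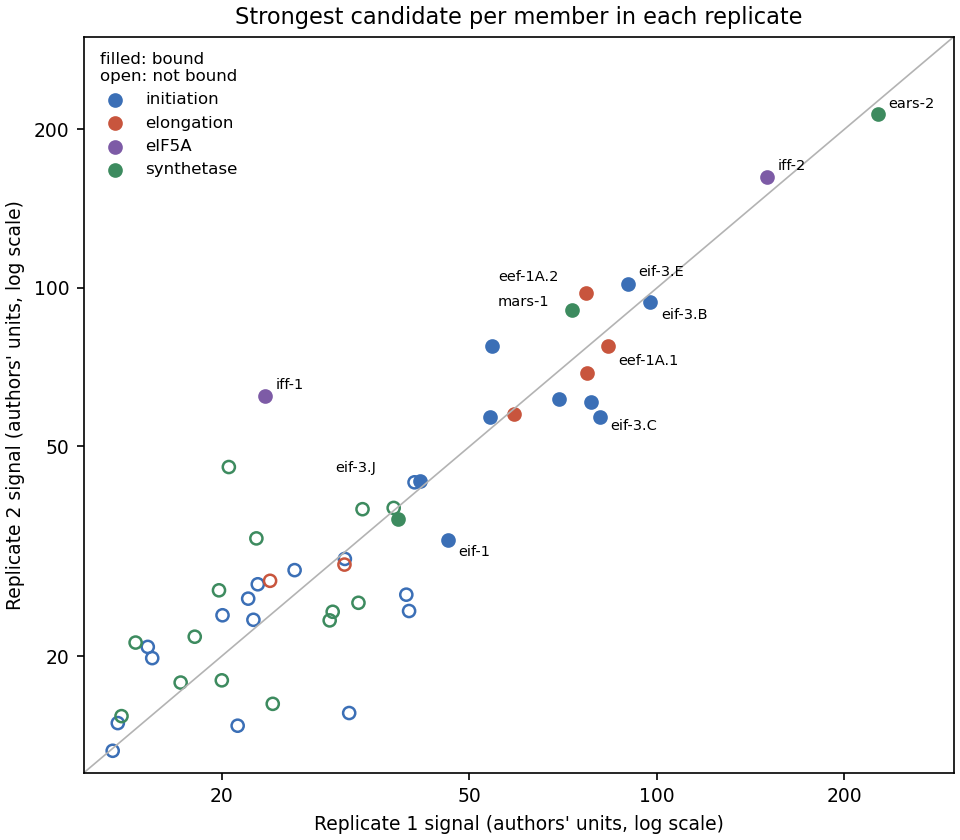
Signal of the strongest candidate within 1000 bp of each member gene in replicate 1 (horizontal) and replicate 2 (vertical), in authors' units on log axes, for the 49 members with a candidate in both. Filled circles are bound genes, open circles are not, and colours give the class. The line marks equal deposited values, whose scale may differ between lists. Bound genes lie along the line from eif-1 to ears-2, and iff-1 lies apart with 23.5 in replicate 1 and 62.5 in replicate 2.

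The replicates placed most bound members alike. Of the 18, 17 had a candidate within 100 bp of the strongest summit in both replicates, the exception being iff-1. Of all 1727 bound genes, 1682 had a thresholded summit with such candidates, so this was common to bound genes. The median gap between the replicates' summits at members was 21 bp (largest 51 bp). When the 2490 strongest peaks of replicate 1 alone were used, 17 of the 18 stayed bound among 21 members called, where 8.88% of all genes were called. With those of replicate 2, 16 stayed bound among 18 called, against 8.3% of all genes. Both lists kept 15, leaving out iff-1, eif-1 and fars-1, whose signals of 77.1 to 78.7 were the lowest of the set. The thresholded list was itself derived from these replicates, and the strongest peak of each bound member held the same rank in it as in the pooled list. These counts thus describe the peaks and are no separate measure of repeatability.

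The share of bound members stood above that of all genes under each other call rule that was tried. A window of 500 bp gave 15 of 69 genes (21.7%), against 6.39% of all genes, and a window of 2000 bp gave 20, against 12.4%. The most upstream 5′ end alone gave 17, against 7.95%, and the gene nearest to each summit alone gave 14, against 6.52%. The stronger 1245 thresholded peaks called 13 members, against 4.62%. Thresholded peaks with candidates in both replicates within 100 bp called 17 members, against 8.42%, within 50 bp 16, against 7.13%, and by overlap 18, against 8.64%. Without peaks near structural RNA genes 17 were called, against 8.11%, and eif-2Bgamma was the one lost.

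Summits lay mostly upstream and often between 2 genes. For 17 of 18 bound members (94.4%) the strongest summit was upstream of the nearest 5′ end, against 86.6% of all 1727 bound genes, and the median distance was 315.5 bp, against 280 bp. The summit called at least 1 other gene for 11 of the 18 (61.1%), against 49.2% of all bound genes. Another gene's 5′ end was nearer in 4 cases, at eif-1, eif-3.D, eef-1A.1 and fars-1. Of the 18 strongest summits 15 were intergenic, 2 intronic (eif-3.I and eif-2Bgamma) and 1 exonic (fars-1).

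**Figure D4:**
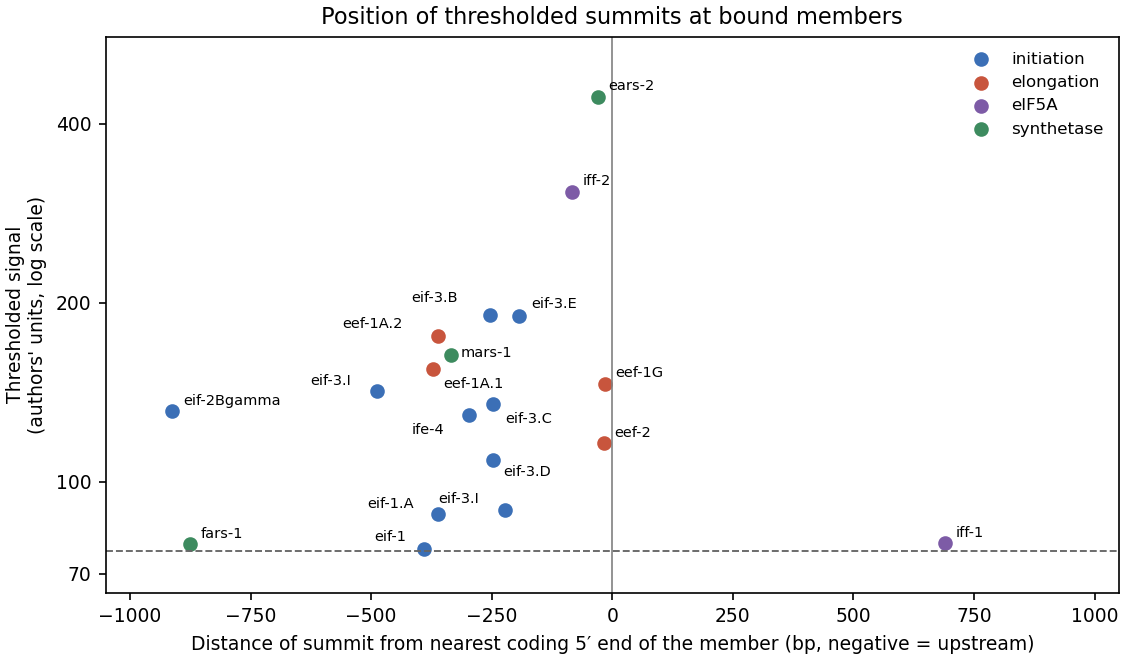
Distance of each thresholded summit from the nearest coding 5′ end of its member gene (horizontal, bp, negative upstream) and its signal (vertical, authors' units, log axis), for the 19 summits at 18 bound genes, coloured by class. The dashed line is the lowest thresholded signal, 76.5. The summits of ears-2, eef-1G and eef-2 are within 30 bp of the 5′ end, eif-2Bgamma and fars-1 lie at 912 and 875 bp upstream, and iff-1 is the only one downstream.

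The classes also differed in how their genes are arranged. A gene on the same strand ended no more than 500 bp before the start of 10 of 31 synthetase genes, 6 of 30 initiation factor genes and 1 of 6 elongation factor genes, and before 18.04% of all genes. C. elegans genes this close are often transcribed together as an operon, and operons themselves were not analysed here. Of all genes in this position 4.63% were bound, and of the members in it 2 of 17 were, eif-2Bgamma and eif-3.C, with none of the 10 synthetase genes. Among genes in any other position, bound shares were 7 of 24 initiation factor genes (29.2%), 4 of 5 elongation factor genes and 3 of 21 synthetase genes (14.3%), against 9.53% of all such genes.

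Other genes of translation, from a list that names 35 symbols outside the rule, were bound at a share like that of the set. Of these symbols 32 were found in the annotation and 10 of them were bound (31.3%), against 8.65% of all genes. One of the 10, sup-35 (197), does not encode a release factor in C. elegans, where it is known as a toxin gene, and without it 9 of 31 were bound (29.0%). The highest signal was 342 at ifet-1, which encodes an eIF4E-binding repressor, and its summit also called the ribosomal protein gene rps-1. The RNA-binding protein gene larp-1 had 274, and the ATPase gene abcf-2 had 208 from a summit 895 bp away. For drr-2, which encodes an eIF4H-like factor, the signal was 207, and for erfa-3, the release factor eRF3, it was 192. The poly(A)-binding protein genes pab-2 and pab-1 had 141 and 114, the pab-1 summit also calling rpl-30. Signals at ifg-1, which encodes the scaffold eIF4G, and at gfm-1, a mitochondrial elongation factor gene, were 97.5 and 84.4. The genes inf-1 (eIF4A), erfa-1 (the partner release factor eRF1) and fars-3 (a further phenylalanyl-tRNA synthetase subunit) were not bound, with pooled candidates of 28.1, 61.0 and 33.5. No pooled candidate was found at rsks-1 (S6 kinase), let-363 (TOR kinase) or efk-1 (eEF2 kinase), which signal to the translation machinery. These 6 unbound genes were named once their values were known.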

How the data were processed

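Per the deposited file lists, the authors called candidate peaks and background on each replicate and on both together, with a control, and thresholded them by the irreproducible discovery rate, a measure of how repeatable peak ranks are. Sources used here do not name the aligner or the peak caller. The deposited signal values are taken here as peak heights, and their scale may differ between lists. At candidates shared by the replicates, the median ratio of the pooled signal to the sum of the replicate signals was 1.00. Replicate values are set side by side as deposited, with ranks for some of the genes. Sequencing depth was not analysed here, and no counting interval can be given for a signal value. The ce10 lists were not used.

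Genes were taken from Ensembl release 115 of WBcel235 and summits (interval start plus offset) from the ce11 lists, joined in Python 3.11.15. Mitochondrial peaks were left out. Divergent genes could both be called by a summit. The call was checked on simulated peaks. RefSeq gives the symbol mars-2 to Y105E8A.20, which had no candidate peak and was not counted. Named genes were all bound members, up to 5 unbound members a class with the highest pooled signal, up to 5 a class without a pooled candidate, and bound genes of the further list. Members, lists and windows were chosen with earlier results of these data known.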

Additional observations from a re-analysis of the deposited data

How the results depend on the processing

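The counts of bound genes (18 members, 9 initiation factors, 4 elongation factors, 3 synthetases) stayed within 1.5 times under all alternatives but one. Taking all pooled candidates in place of the thresholded list raised them to 54 members, 25 initiation factors and 21 synthetases, because that list has no threshold. With one replicate's 2490 strongest peaks they ranged from 18 to 21 members, 9 to 12 initiation factors, 4 to 4 elongation factors and 3 to 4 synthetases. Windows of 500 and 2000 bp gave 15 and 20 members, and the nearest gene alone gave 14. The stronger 1245 thresholded peaks gave 13 members, of which 2 were synthetases, where 4.62% of all genes were bound. Counting the iff genes with either class gave 11 initiation or 6 elongation factors. Of the 18 bound members, 10 kept their call in all 10 alternatives other than the wider window and the pooled list, and 8 lost it in at least 1. The call of iff-1 was lost in 6 of them, that of fars-1 in 4 and that of eif-1 in 3. No paired analysis was possible because there is 1 group. A signal near 76.5 cannot be placed firmly on either side of the threshold, since its counting error is unknown.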

Other observations

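The gene eif-3.J had a candidate in both replicates and none in the pooled list. Signals were 40.8 in replicate 1 and 42.7 in replicate 2, at summits 46 bp apart, the first of them 890 bp upstream of the gene, and each was among the 2490 strongest nuclear peaks of its replicate. The nearest pooled summit was 937 bp away. With either replicate alone eif-3.J was bound, and it was the only unbound member of which this held. Why it is missing from the pooled list was not tested.

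The 10 bound genes on the further translation list included sup-35. Of these 10, 9 had a summit that also called another gene, against 49.2% of all bound genes. For ifet-1 this was the ribosomal protein gene rps-1 and for pab-1 rpl-30, and pab-2 was the exception. The call alone cannot assign those 9 peaks to one gene, and the same holds for member summits that called another gene.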
